A study of Mus musculus with 4 samples.

Results

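The genes described are the 3 TGF-beta ligand genes (Tgfb1, Tgfb2 and Tgfb3), the receptor genes Tgfbr1 and Tgfbr2, and the SMAD genes Smad2, Smad3, Smad4 and Smad7, chosen by symbol. All 9 were found among the 25759 gene symbols of the count table, and all 9 had enough counts to be tested. The RNA is labelled as that of type II cells of the alveolar epithelium, which make surfactant, in C57BL/6 mice aged 14 weeks. There were 2 wild-type (WT) libraries and 2 libraries from mice labelled Sftpc-mTOR transgenic (mTOR Tg), which carry a conditional active form of the kinase mTOR. Sftpc is the surfactant protein C gene, whose promoter drives expression in type II cells. The sources used here do not say how the transgene was switched on, how the cells were isolated or whether a library came from 1 mouse or a pool. The comparison asks how transcripts of TGF-beta signalling differ between the mTOR Tg and WT genotypes, with no measure of mTOR activity.

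TGF-beta ligands are secreted in a latent complex and are released from it by integrins, proteases or thrombospondin. The active ligand binds the type II receptor TGFBR2, which recruits and phosphorylates the type I receptor TGFBR1. TGFBR1 in turn phosphorylates SMAD2 and SMAD3, which join SMAD4, enter the nucleus and regulate genes, among them Smad7, whose product blocks the receptor. In the alveolus the pathway is known for restraining epithelial growth, for a role in the change of type II into type I cells, and for driving fibrosis.

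Library totals ran from 18146693 to 21972124 counts. Sftpc took 6.35% to 7.61% of counts in each library. The mTOR Tg replicate 1 library stood apart from the others. Its log2 CPM (counts scaled to the library total) had a Pearson's r with theirs of 0.951 to 0.954 across genes, which are not independent replicates, against 0.983 to 0.988 among the other 3 libraries. Summed club cell markers were 158003 CPM in it and 54849 to 88460 CPM in the other libraries, and all 8 of those markers were counted. Among them Scgb1a1 was at 71140 and 75520 CPM in WT and at 138531 and 45192 CPM in mTOR Tg. It exceeded Sftpc in WT replicate 2 (63474 CPM) and in mTOR Tg replicate 1 (67315 CPM). Transcripts of airway cells were thus abundant in every library, and the levels given below are those of mixed isolates. Ciliated cell markers summed to 4057 CPM in mTOR Tg replicate 1 and 2361 to 2979 CPM elsewhere. Of these, Dnah5 was lowest in that library (53.9 against 68.6 to 98.7 CPM). Sec14l3, the largest, was there at 1290 CPM, below WT at 1363 and 1562 CPM, and the other listed ciliated genes were highest there. Mesothelial markers summed to 377 CPM in it and 179.5 to 199.9 CPM elsewhere. Most of that sum was the keratin gene Krt19, at 347 against 157 to 180 CPM. The mitochondrial share of mTOR Tg replicate 1 was 3.71%, against 4.75% to 4.97%. Summed type II cell markers were 120765 CPM in it and 129708 to 160804 CPM in the others, or 53450.1 against 66233 to 84772 CPM without Sftpc. Among them Lamp3 was at 921 CPM against 1774 to 2011 CPM, and Slc34a2 at 3877 against 7725 to 9604 CPM. Such a fall was not shared by the whole list. That library had Sftpd at 2669 CPM, above WT at 2544 and 2267 CPM. Its Sftpc was at 67315 CPM, between WT at 76123 and 63474 CPM. The other listed type II markers were lowest in it, some by little, as Napsa at 1093 against 1113 to 1458 CPM. Etv5 was at 397 against 758 to 919 CPM, and Hc at 1311 against 2695 to 3300 CPM. The mTOR Tg replicate 1 library also held fewer long transcripts. Its median log2 difference from the WT mean was -0.52 over the length quartile of tested genes with the longest transcripts. It was 0.43 over the quartile with the shortest. In mTOR Tg replicate 2 both medians were 0.00. Mtor was at 56.8 and 56.7 normalised CPM in WT and at 38.9 and 61.8 in mTOR Tg. Whether transgene reads are counted under that symbol is not known, so this is no check of the labels. In bulk RNA, fewer cells of a type and less RNA per cell cannot be told apart.

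No gene of the TGF-beta core passed the test between genotypes. The edgeR quasi-likelihood test with Benjamini-Hochberg adjustment at 0.05 called 0 of the 9 genes, beside 0% of the 13306 genes tested. At an unadjusted p under 0.05 there were 0 of 9, beside 2.4% of all tested genes. DESeq2 also called 0 of the 9, beside 0.0676% of tested genes higher and 0.0225% lower, and so did edgeR with the replicate number as a block, beside 0.173% higher and 0.113% lower. For 6 of the 9 genes, both receptors and Smad2, Smad3 and Smad4 among them, the lowest value was that of mTOR Tg replicate 1. The inhibitory SMAD gene Smad7 was at nearly the same level in both mTOR Tg libraries, below both WT libraries.

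Compared per transcript length, the type II receptor transcript was the most abundant of the 9 in all 4 libraries. Levels per length are given as RPKM, the normalised CPM divided by the union of a gene's exons in kilobases. In WT, Tgfbr2 was at 19.3 ± 0.955 RPKM (SD, n = 2), the common-partner SMAD gene Smad4 at 16.0 ± 0.636 and Smad3 at 15.7 ± 1.03. Smad4 and Smad3 did not differ beyond their spread, and their order changed between the WT libraries. Tgfb3 followed at 10.4 ± 0.150, Smad7 at 6.66 ± 0.458 and Tgfbr1 at 4.96 ± 0.211. Smad2 at 3.96 ± 0.0140 and Tgfb1 at 3.59 ± 0.638 did not differ beyond the spread of Tgfb1, and Tgfb2 was lowest at 0.937 ± 0.132. In mTOR Tg the order of the means was the same except that Tgfb1 (3.66 ± 0.460) stood above Smad2 (3.06 ± 0.626), again within their spread. Tgfbr2 and Tgfb2 kept the first and last place in every library. Gene length sets part of this order: with the longest transcript in place of all exons, Tgfb1 in WT was at 7.03 RPKM, and 3 of the 9 ranks changed in each genotype.

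**Figure D1:**
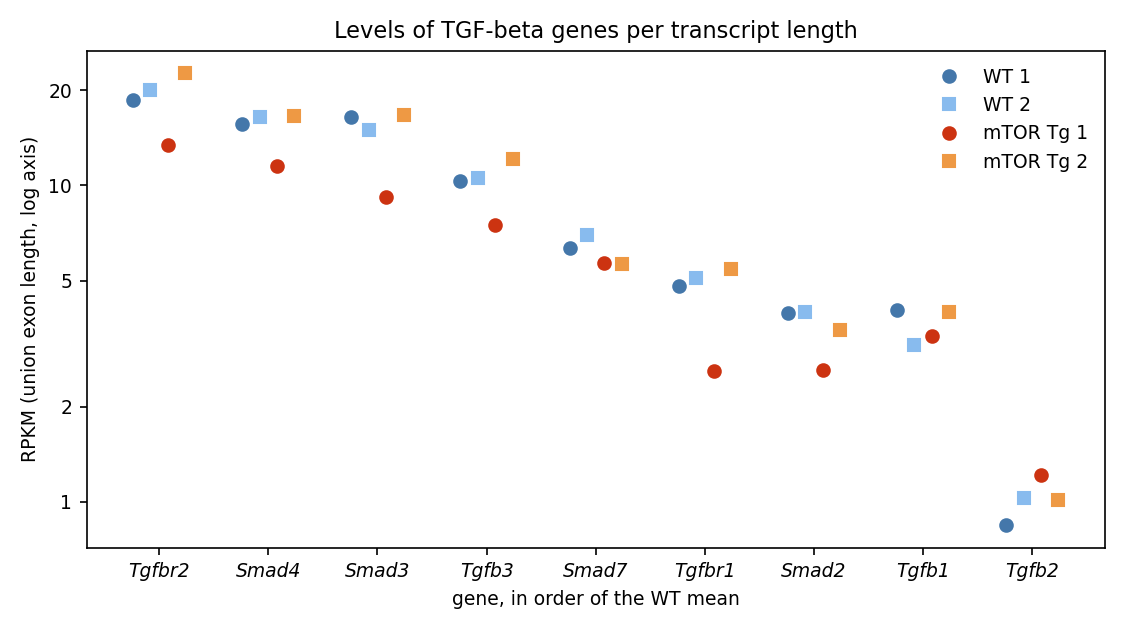
Level per transcript length of each gene (RPKM on union exon length, log axis) in the 4 libraries, with genes in order of their WT mean and each point a library. Tgfbr2 is highest and Tgfb2 lowest in every library, and mTOR Tg replicate 1 lies below the other 3 libraries for Tgfbr2, Smad4, Smad3, Tgfb3, Tgfbr1 and Smad2.

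Of the 3 ligand genes, Tgfb3 held the largest share of the transcripts per length. Its share of the summed RPKM of the ligands was 67.8% and 71.6% in WT replicates 1 and 2 and 62.2% and 70.7% in mTOR Tg replicates 1 and 2. Tgfb1, the ligand most studied in fibrosis, held 26.6% and 21.4% in WT and 27.7% and 23.4% in mTOR Tg. Tgfb2 held 5.56% and 7.01% in WT and 10.1% and 5.95% in mTOR Tg. The ligands had the same order in all 4 libraries on this length scale. With the longest transcript in place of all exons, a choice made after the data were seen, the order was the same and the shares were closer. Tgfb3 then held 48.6% to 59.0% and Tgfb1 34.5% to 42.4% over the 4 libraries.

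Tgfb1 (ENSMUSG00000002603.15, chromosome 7, 25687002 to 25705077 on GRCm38) was at 20.4 and 15.8 normalised CPM in WT replicates 1 and 2 and at 16.8 and 20.1 in mTOR Tg. The groups overlapped, and the WT libraries lay further apart than the group means. The log2 fold change of mTOR Tg over WT was 0.03 (SE 0.24, 95% interval -0.56 to 0.62, edgeR adjusted p = 0.974), with its sign depending on the setting. It was -0.02 on library sizes alone and -0.09 with offsets for transcript length and GC content.

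Tgfb2 (ENSMUSG00000039239.14, chromosome 1, 186622792 to 186705989) had counts of 89 and 118 for WT and 144 and 123 for mTOR Tg, or 4.89 and 5.96 normalised CPM in WT and 7.06 and 5.89 in mTOR Tg. The highest value was in mTOR Tg replicate 1, and the second mTOR Tg library lay between the WT libraries. Its log2 fold change was 0.25 (SE 0.26, 95% interval -0.41 to 0.91, edgeR adjusted p = 0.865). With the length and GC offsets it was 0.49. Of the 5 genes of the longest quartile named further on, the other 4 were lowest in mTOR Tg replicate 1.

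Tgfb3 (ENSMUSG00000021253.7, chromosome 12, 86056745 to 86079041) was at 34.9 and 35.6 normalised CPM in WT and at 25.4 and 40.8 in mTOR Tg. The WT libraries lay between the lower and the higher mTOR Tg library. Its log2 fold change was -0.09 (SE 0.28, 95% interval -0.78 to 0.61, edgeR adjusted p = 0.930). In GENCODE M21, exons of Tgfb2 and Tgfb3 share 124 to 257 bases with genes on the other strand, and since the strandedness of the counting is not known, such reads cannot be told apart. Of these, Gm37804 had 3 counts in WT replicate 2 and 0 in the other libraries.

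**Figure D2:**
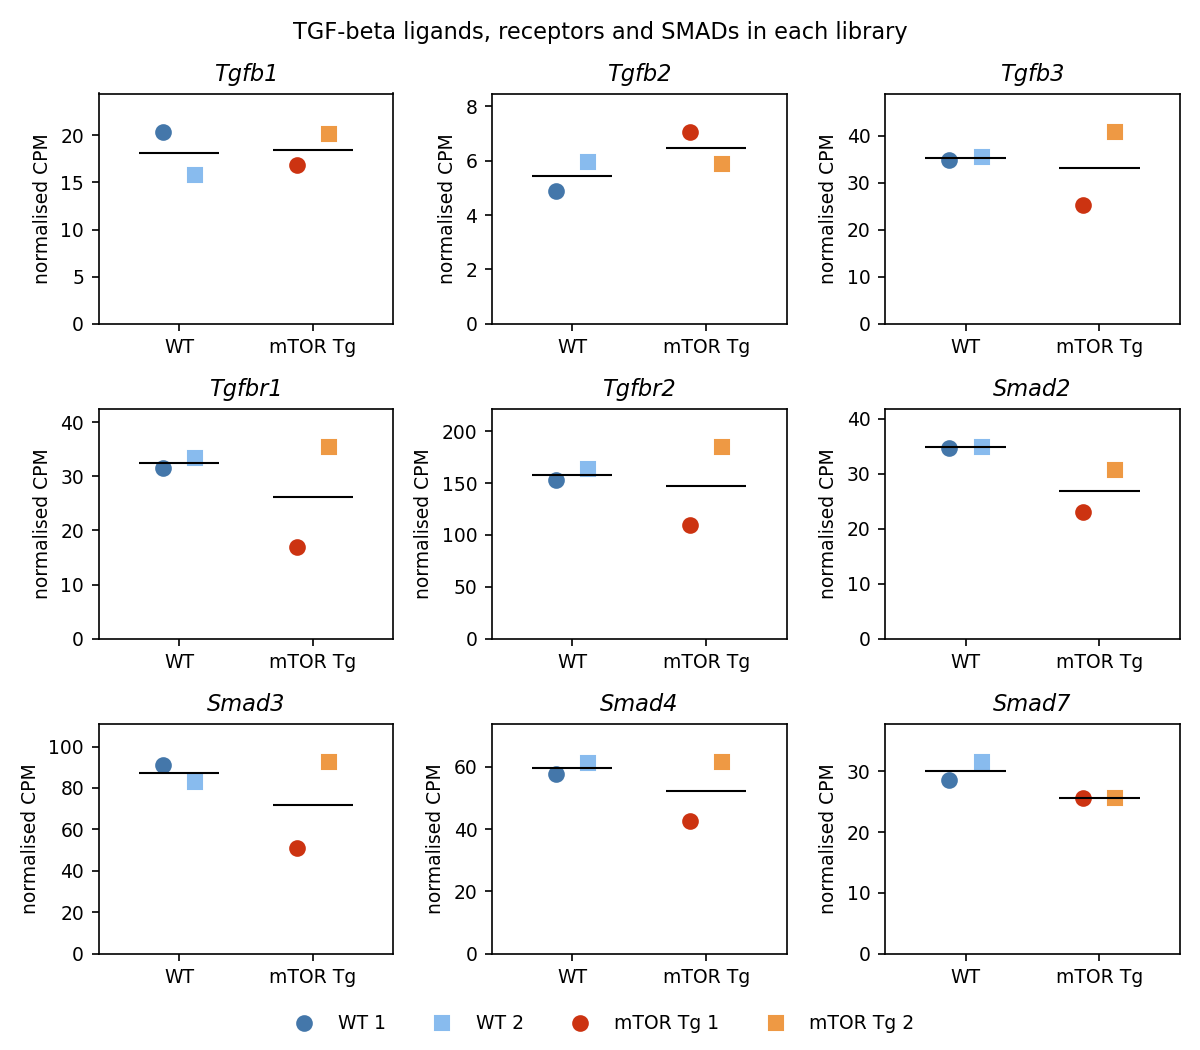
Normalised CPM of the 9 genes in the 2 WT and 2 mTOR Tg libraries, each panel with its own axis from 0, points for libraries and lines for group means. In 6 panels mTOR Tg replicate 1 lies below the other 3 libraries, and the Smad7 panel shows both mTOR Tg libraries at 25.6 to 25.7 CPM, under both WT libraries.

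Among the 9 genes the gap between the mTOR Tg libraries was widest for Tgfbr1, at 1.07 on the log2 scale, followed by Smad3 at 0.87 and Tgfbr2 at 0.75. Tgfbr1 (ENSMUSG00000007613.15, chromosome 4, 47353222 to 47414931), the signalling type I receptor, was at 31.5 and 33.4 normalised CPM in WT and at 16.9 and 35.4 in mTOR Tg. Replicate 1 was low and replicate 2 lay above both WT libraries. The log2 fold change was -0.31 (SE 0.37, 95% interval -1.23 to 0.61, edgeR adjusted p = 0.865). It was -0.01 with the length and GC offsets.

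Tgfbr2 (ENSMUSG00000032440.13, chromosome 9, 116084293 to 116175360), the ligand-binding type II receptor, was at 153 and 164 normalised CPM in WT and at 109.9 and 185 in mTOR Tg. As with Tgfbr1, the WT libraries lay between the mTOR Tg libraries. Its log2 fold change was -0.10 (SE 0.29, 95% interval -0.83 to 0.62, edgeR adjusted p = 0.924) and 0.15 with the length and GC offsets, a change of sign. Several ratios between the genes described were computed, and all but that of Tgfbr2 to Tgfbr1 overlapped between the genotypes. In RPKM that ratio was 3.87 and 3.91 in WT and 5.19 and 4.17 in mTOR Tg, higher in both mTOR Tg libraries than in WT. At 2 libraries a group, no two-sided exact permutation p can be smaller than 0.333, and the ratio was not tested further.

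Of the receptor-activated SMADs, Smad3 was the more abundant in every library, at 3.50 to 4.77 times Smad2 in RPKM. Smad3 (ENSMUSG00000032402.12, chromosome 9, 63646767 to 63757994) was at 91.2 and 83.1 normalised CPM in WT and at 50.8 and 92.6 in mTOR Tg. The low value stood in mTOR Tg replicate 1 alone, and the log2 fold change was -0.28 (SE 0.32, 95% interval -1.08 to 0.51, edgeR adjusted p = 0.865). Smad2 (ENSMUSG00000024563.16, chromosome 18, 76241580 to 76310963) was at 34.7 and 34.9 in WT and at 23.0 and 30.7 in mTOR Tg. Here both mTOR Tg libraries lay below WT, with a log2 fold change of -0.37 (SE 0.23, 95% interval -0.94 to 0.19, edgeR adjusted p = 0.865). With the length and GC offsets the Smad2 value was 0.00, with replicate 1 at 34.0 corrected CPM, above WT at 31.6 and 29.2, and replicate 2 at 27.2.

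Smad4 (ENSMUSG00000024515.13, chromosome 18, 73639009 to 73703780), the partner shared with the BMP branch, was at 57.8 and 61.2 normalised CPM in WT and at 42.7 and 61.6 in mTOR Tg. It followed the pattern of Smad3, with replicate 1 low and replicate 2 just above WT. Its log2 fold change was -0.19 (SE 0.24, 95% interval -0.80 to 0.42, edgeR adjusted p = 0.865), and it was also -0.19 with the length and GC offsets.

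Smad7 (ENSMUSG00000025880.11, chromosome 18, 75367529 to 75395935) had counts of 522 and 625 for WT and 523 and 534 for mTOR Tg. It was at 28.7 and 31.6 normalised CPM in WT (mean 30.1 ± 2.07, SD, n = 2) and at 25.7 and 25.6 in mTOR Tg (mean 25.6 ± 0.0648, n = 2). Both mTOR Tg libraries lay below both WT libraries, with a log2 fold change of -0.23 (SE 0.19, 95% interval -0.72 to 0.25, edgeR adjusted p = 0.865). The direction was the same on the length and GC corrected scale (29.3 and 31.6 CPM in WT, 24.9 and 25.7 in mTOR Tg). It was also the same when mTOR Tg replicate 1 (-0.24) or replicate 2 (-0.23) was left out, and none of these values passed the threshold. The difference between the means was larger than the SD of either pair, and it did not pass the test across genes.

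In 2 of the 9 genes, Smad2 and Smad7, both mTOR Tg values were below both WT values, beside 17% of all tested genes. For 0 of the 9 were both mTOR Tg libraries above WT, beside 17.6% of all tested genes, and 34.6% of them did not overlap in either direction. The median log2 fold change of the 9 was -0.19, and that of all tested genes 0.01. The share of the 9 that did not overlap downward is thus near that of the whole table.

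**Figure D3:**
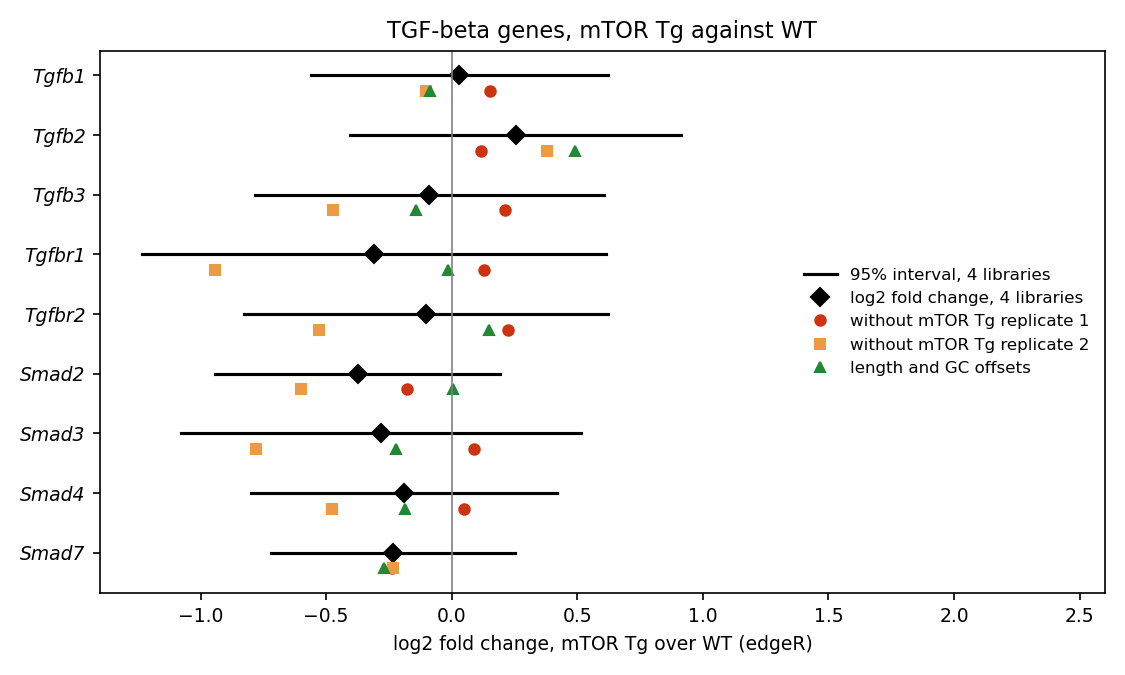
Log2 fold change of mTOR Tg over WT for each gene from the edgeR fit of 4 libraries (diamonds) with 95% intervals (lines), and the value without mTOR Tg replicate 1, without mTOR Tg replicate 2, and with length and GC offsets. All 9 intervals include 0, and for Tgfb1, Tgfb3, Tgfbr1, Tgfbr2, Smad3 and Smad4 the values without either mTOR Tg library lie on opposite sides of 0.

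The sign for Tgfb3, both receptors, Smad3 and Smad4 changed when mTOR Tg replicate 1 was left out, and that for Smad2 and Smad7 did not. Relative to the WT mean of log2 CPM, it stood at -0.94 for Tgfbr1, -0.78 for Smad3, -0.60 for Smad2, -0.53 for Tgfbr2, -0.48 for Smad4 and -0.47 for Tgfb3. In replicate 2 the same 6 genes lay at 0.13, 0.09, -0.18, 0.23, 0.05 and 0.21. Without mTOR Tg replicate 2, which leaves the genotype as replicate 1 alone with a spread assumed equal to that of WT, those 6 genes were called lower (edgeR adjusted p of 4.5e-05 to 0.00863), beside 23.7% of tested genes called lower and 22% higher in that fit. Without mTOR Tg replicate 1, 0 of the 9 were called, beside 1.15% lower and 1.37% higher. These 2 fits hold no replication of the mTOR Tg group.

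Transcript length moved with these values. Of the 9 genes, 5 (Tgfb2, Tgfbr1, Tgfbr2, Smad2 and Smad3) were in the longest quartile of tested genes, with longest transcripts of at least 4820 bases, and 3 (Tgfb3, Smad4 and Smad7) in the next. In mTOR Tg replicate 1, 6 of the 9 genes had their lowest value, beside 39.9% of all tested genes and 72.4% of those in the longest quartile. With the length and GC offsets its difference from WT was 0.07 for Tgfbr2, 0.16 for Smad2 and -0.22 for Tgfbr1, and it was -0.60 for Smad3, -0.60 for Tgfb3, -0.47 for Smad4, -0.34 for Tgfb1 and 0.80 for Tgfb2. On that scale Tgfbr2 and Smad2 were no longer below the WT mean in that library, while Smad3, Tgfb3 and Smad4 still were. The part of the club and type II cell markers given above in these values was not tested.

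**Figure D4:**
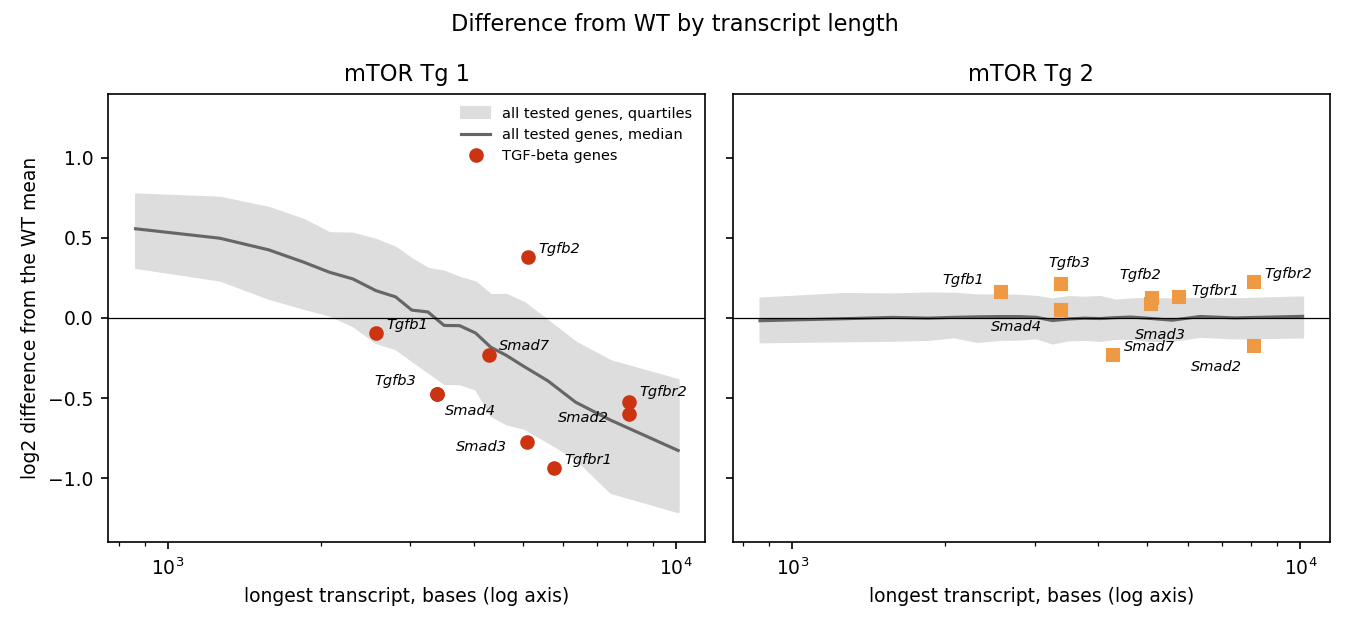
Log2 difference of each mTOR Tg library from the WT mean against the longest transcript of a gene (log axis), with the median and quartiles over bins of all tested genes (line and band) and the 9 TGF-beta genes as points. In replicate 1 the band falls with length and Tgfb1, Smad7, Tgfbr2 and Smad2 lie within it, while in replicate 2 the band is flat at 0.

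**Figure D5:**
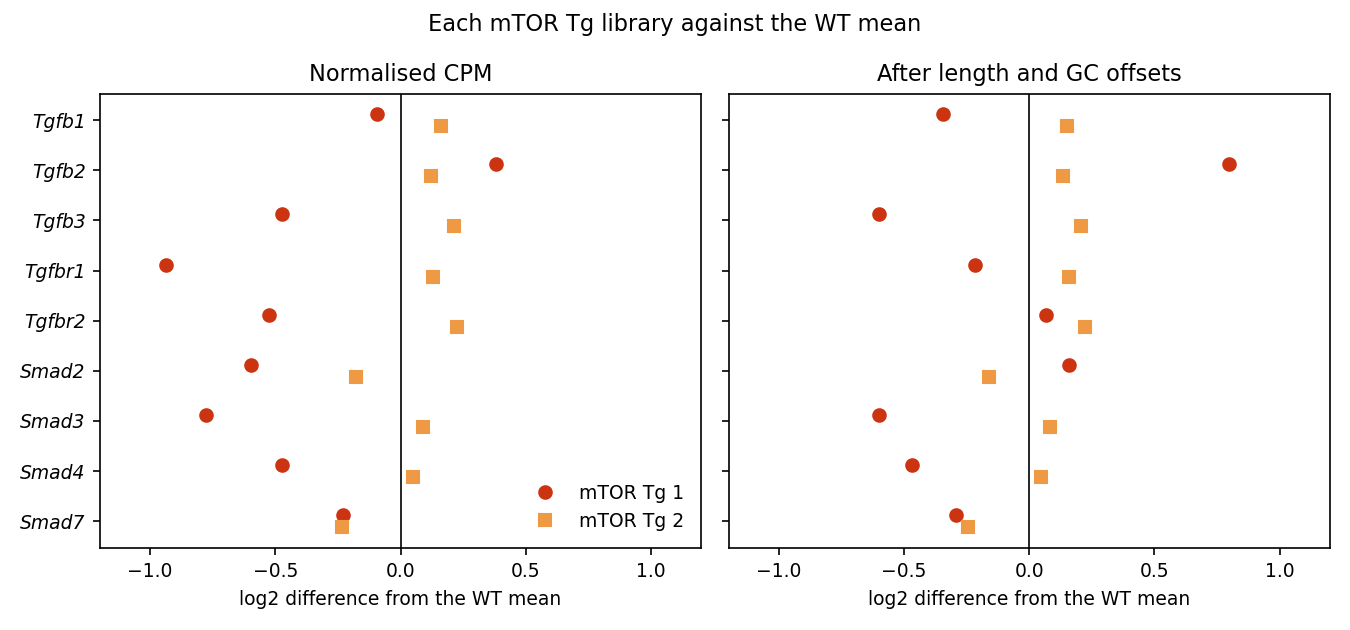
Log2 difference of each mTOR Tg library from the WT mean for the 9 genes, from normalised CPM (left) and after offsets for transcript length and GC content (right). Smad7 has both libraries at -0.23 on the left and at -0.29 and -0.24 on the right, and the replicates of Tgfb3, Smad3 and Smad4 stay apart in both panels.

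RefSeq promoters were found for 5 of the 9 genes (GRCm38.p6). The bases upstream of 3 of them are shown because these genes were all low in mTOR Tg replicate 1 (Tgfbr1, Tgfbr2 and Smad3). Those of Tgfb2 are shown because it was highest there. With the length and GC offsets Tgfbr2 was at 0.07 and Tgfbr1 at -0.22 from the WT mean in that library. A link between these sequences and the levels was not tested. Each printed sequence runs 5′ to 3′ on the gene's strand over the 250 bases before the start. Capitals mark matches on either strand to a SMAD-binding element (CAGAC), a GC box (GGGCGG), an AP-1 site (TGACTCA) or a TATA box (TATAAA). The windows are chr4:47352972-47353221 on the plus strand, and chr9:116175364-116175613, chr9:63757995-63758244 and chr1:186705990-186706239 on the minus strand.
Tgfbr1: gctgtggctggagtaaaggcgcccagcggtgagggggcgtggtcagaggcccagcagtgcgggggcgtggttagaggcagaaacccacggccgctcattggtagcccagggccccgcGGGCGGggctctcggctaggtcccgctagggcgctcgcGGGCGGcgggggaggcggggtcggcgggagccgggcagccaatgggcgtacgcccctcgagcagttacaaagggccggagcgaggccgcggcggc
Tgfbr2: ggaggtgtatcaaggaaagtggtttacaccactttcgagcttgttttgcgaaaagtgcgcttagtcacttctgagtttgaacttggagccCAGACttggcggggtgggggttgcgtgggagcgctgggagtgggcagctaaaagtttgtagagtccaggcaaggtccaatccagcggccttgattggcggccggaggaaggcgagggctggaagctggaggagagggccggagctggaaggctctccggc
Smad3: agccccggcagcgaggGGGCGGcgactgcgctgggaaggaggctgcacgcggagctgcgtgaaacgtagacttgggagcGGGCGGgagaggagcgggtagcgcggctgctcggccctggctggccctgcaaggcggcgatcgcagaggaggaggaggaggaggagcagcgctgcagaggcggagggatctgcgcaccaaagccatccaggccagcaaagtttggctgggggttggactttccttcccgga
Tgfb2: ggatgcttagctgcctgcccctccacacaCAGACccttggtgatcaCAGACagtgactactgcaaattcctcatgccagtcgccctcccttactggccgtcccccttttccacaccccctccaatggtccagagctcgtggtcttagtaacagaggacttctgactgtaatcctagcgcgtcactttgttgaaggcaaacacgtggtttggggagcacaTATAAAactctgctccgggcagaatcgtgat

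Tgfbr1 and Smad3 each held 2 GC boxes and no SMAD-binding element. Tgfbr2 held 1 SMAD-binding element and no GC box. Tgfb2 held 2 SMAD-binding elements and a TATA box that begins 31 bases before the start, and Tgfb1, not printed, held 5 GC boxes. Over all 32851 promoter windows of this length, 42.2% held the SMAD-binding element, 32.7% the GC box, 12.4% the TATA box and 4.46% the AP-1 site, so such matches are common. The windows held 29 CpG dinucleotides for Tgfbr1, 22 for Smad3, 12 for Tgfbr2 and 8 for Tgfb2, where the median over all windows was 6. RefSeq lists a further start of Tgfbr1, not printed, whose window held 1 SMAD-binding element.

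Genes that hold TGF-beta latent or release it showed no called change, beside 0% of all tested genes called. Of 18 listed, 16 were tested, 7 with a positive and 9 with a negative log2 fold change, 0 called in either direction, and a median of -0.03 beside 0.01 over all tested genes. With 1 library left out that median ran from -0.14 to 0.06. The 2 with the smallest p were Lrrc32, which encodes the latent TGF-beta anchor GARP, and Thbs1, which encodes the activator thrombospondin 1. Lrrc32 had counts of 18 and 15 for WT and 26 and 40 for mTOR Tg, with a log2 fold change of 0.87 (SE 0.44), and 0.55 when mTOR Tg replicate 2 was left out. Thbs1 was at 61.1 and 62.4 normalised CPM in WT and at 34.8 and 53.4 in mTOR Tg (-0.48, SE 0.26). Its value was -0.21 when mTOR Tg replicate 1 was left out and -0.83 when replicate 2 was. Chosen after their values were seen, Ltbp3, a latent TGF-beta binding protein gene, had 337 and 325 normalised CPM for WT and 296 and 348 for mTOR Tg, and Itgb6, a subunit of the epithelial activating integrin, at 7.47 and 6.47 and at 8.83 and 6.61. Itgb8, chosen likewise, had counts of 0 and 3 for WT and 0 and 3 for mTOR Tg.

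Inhibitors of the pathway were split in direction. Of 22 listed, 18 were tested, 9 positive and 9 negative, with 0 called beside 0% of all tested genes. Their median was 0.06, which ran from -0.02 to 0.08 with 1 library left out. Pmepa1, which encodes a membrane protein that sequesters SMADs and is itself induced by TGF-beta, was at 34.8 and 40.2 normalised CPM in WT and at 55.0 and 45.7 in mTOR Tg. Each mTOR Tg value exceeded both WT values, the opposite order to Smad7, and the log2 fold change was 0.42 (SE 0.21, 0.865 as the edgeR adjusted p). It was 0.28 when the first mTOR Tg library was left out and 0.55 when the second was. Fstl3, whose product binds activin, had 5.65 and 5.10 normalised CPM for WT and 7.51 and 6.94 in mTOR Tg (0.43, SE 0.24), and its log2 fold change was 0.18 with the length and GC offsets.

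Genes known to be induced by TGF-beta were likewise not called, beside 0% of all tested genes called. Of 26 listed, 21 were tested, 13 positive and 8 negative, 0 called, with a median of 0.15. That median was 0.02 when mTOR Tg replicate 2 was left out and 0.29 when replicate 1 was. The smallest p was that of Tagln, followed by that of Pmepa1, given above. Tagln, a smooth muscle cytoskeletal gene, was at 4.72 and 3.79 normalised CPM in WT and 2.94 and 1.68 in mTOR Tg (-0.88, SE 0.38). The log2 fold change of Tagln was -1.34 when the first mTOR Tg library was left out and -0.53 when the second was. Smooth muscle markers, Tagln among them, moved with it: their sum was 18.6 and 13.5 CPM in WT and 9.42 and 7.40 in mTOR Tg, all 7 had a count in at least 1 library, and their part was not tested. Chosen after its values were seen, Ctgf, a matricellular protein gene, had 6.37 and 6.67 normalised CPM for WT and 14.1 and 5.27 for mTOR Tg, so that only replicate 1 of mTOR Tg stood above WT.

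Nuclear partners of the SMADs and ubiquitin regulators that promote signalling were negative in 11 of 12 tested genes, of 14 listed. The test called 0 of them, beside 0% of all tested genes. Among all 13306 tested genes 6534 were negative, and among the 3284 of the longest quartile 2595 were. The list's median was -0.36. Relative to the WT mean it was -0.48 in the first mTOR Tg library and 0.03 in the second, and the median fold change was 0.01 with the length and GC offsets. The coactivator gene Ep300 was at 107 and 128 normalised CPM in WT and at 43.8 and 107 in mTOR Tg (-0.63, SE 0.43). That value was -0.13 when mTOR Tg replicate 1 was left out and -1.42 when replicate 2 was. Jun, a subunit of the AP-1 factor that cooperates with SMADs, was at 1343 and 1190.0 in WT and at 1034 and 814 in mTOR Tg (-0.45, SE 0.24), with both mTOR Tg libraries below WT. The log2 fold change of Jun was -0.59 with the offsets and -0.29 when mTOR Tg replicate 2 was left out.

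Other cell types that carry TGF-beta or its receptors were checked by their markers. Summed platelet markers were 3.80 to 8.74 CPM over the 4 libraries and macrophage markers 7.73 to 11.0 CPM, with the macrophage genes Adgre1 and C1qb at 0 counts in each. Of the 9 T and NK cell markers 4 were at 0 in every library, Cd3e among them, and their sum was at most 0.273 CPM. The 12 endothelial markers, all counted, summed to 171 and 177 CPM for WT and to 104 and 114 CPM for mTOR Tg. They were lower in both mTOR Tg libraries, as Smad7 was, with Kdr leading the sum. Without Kdr they summed to 91.1 and 88.8 CPM for WT and to 55.7 and 78.1 CPM for mTOR Tg, and Egfl7 was at 10.4 and 9.36 and at 9.56 and 10.6 CPM. Their part in the Smad7 values was not tested. The 13 markers of fibroblasts and pericytes, all counted, summed to 553 and 579 CPM for WT and to 1044 and 789 CPM for mTOR Tg, most of it from Gsn. The other 12 summed to 51.4 and 36.1 CPM for WT and to 36.9 and 66.1 CPM for mTOR Tg, which overlap.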

How the data were processed

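The deposited table holds whole-number counts for each gene symbol in the 4 libraries. The submitters' processing notes name HISAT2, edgeR and mm10. The sources used here do not give the counting program, annotation or strand setting. Columns were tied to samples by the sample descriptions. Genes were filtered with filterByExpr by group (minimum count 10), scaled with TMM factors and compared with edgeR 4.0.16 in R 4.3.3 (glmQLFit, glmQLFTest, genotype as the only term), adjusting over all 13306 tested genes. Standard errors are the size of the log2 fold change over the square root of F, and 95% intervals use the fit's degrees of freedom. Log2 CPM had a prior count of 2. Marker sums are CPM on raw library totals, in which 3 counts are 0.137 to 0.165 CPM. Positions and lengths come from GENCODE M21 (GRCm38, that is mm10), to which 97.1% of symbols matched, and promoters from RefSeq. Length and GC offsets were splines with 4 degrees of freedom per library, over the 98.7% of tested genes with both values. The code was tested on simulated counts.

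Named genes are the 9 genes and, of each pathway list, the 2 members with the smallest p and a mean of at least 1 CPM, as no member passed. Members, lists and rules were chosen with earlier results of these data known. Alternatives were other scalings and filters, DESeq2 1.42.0, limma-voom (3.58.1), the robust option, leaving out each library, a replicate block, the length and GC offsets and a threshold of 0.1. Marker sums without their leading gene and ligand shares by longest transcript were added after the data were seen. The labels do not say whether samples came from separate mice, so the p-values reflect only the spread among the samples at hand, which may be technical.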

Additional observations from a re-analysis of the deposited data

How the results depend on the processing

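Over all genes the count of calls was 0 in edgeR with all 4 libraries. It was 12 with DESeq2, 38 with the replicate block, 5 with the replicate block together with the length and GC offsets, and between 8 and 6235 with 1 library left out (8 and 15 without WT replicates 1 and 2, 342 and 6235 without mTOR Tg replicates 1 and 2). The 9 TGF-beta genes had 0 calls in each alternative with all 4 libraries (smallest adjusted p = 0.844), the replicate block included, and 0 to 6 with 1 library left out. The labels do not say that replicate numbers mark a shared day or animal, and deviations of same-numbered libraries correlated at 0.0708 across genes, so the block is not read as a pairing. The direction changed in 6 values with all 4 libraries and in 7 with 1 left out. For Tgfb1 (0.03) the value was -0.0228 on library size only, -0.0864 with the length and GC offsets and -0.10 with these and the replicate block, and from -0.14 to 0.22 with 1 library left out. For Tgfbr2 (-0.10) it was 0.15 with the offsets, 0.15 with these and the block, and from -0.53 to 0.22 with 1 library left out. For Smad2 (-0.37) it was 0.0045 with the offsets. Without mTOR Tg replicate 1 it was 0.21 for Tgfb3, 0.13 for Tgfbr1, 0.0877 for Smad3 and 0.0494 for Smad4, and the lowest values, without mTOR Tg replicate 2, were -0.47, -0.94, -0.78 and -0.48. Tgfb2 and Smad7 kept their direction in every alternative run. The causes were not tested. With 2 libraries per genotype the 95% intervals given above are wide, and no absence of a difference follows from them.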

Other observations

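The BMP and activin side of the family showed no called change (edgeR, 0% of all tested genes called). Of 18 other ligand genes listed, 12 were tested, 5 positive and 7 negative, with a median log2 fold change of -0.11, which ran from -0.24 to -0.02 with 1 library left out and was -0.26 over the genes with at least 1 CPM in all libraries. Gdf15, a stress-induced family member, was at 13.1 and 19.7 normalised CPM in WT and at 31.5 and 31.4 in mTOR Tg. Its log2 fold change was 0.94 (SE 0.26), with 0.865 as the edgeR adjusted p, 0.94 without either mTOR Tg library and 0.65 with the length and GC offsets. Bmp2 was at 33.1 and 34.7 normalised CPM in WT and at 15.8 and 27.0 in mTOR Tg (-0.66, SE 0.30), with -0.33 when the first mTOR Tg library was left out and -1.10 when the second was. Of 12 other receptors 11 were tested, with 7 negative, 4 positive and a median of -0.31. That median was -0.66 when mTOR Tg replicate 2 was left out and 0.07 when replicate 1 was, and it was -0.05 with the length and GC offsets. Amhr2, the receptor of anti-Müllerian hormone, had counts of 19 and 28 for WT and 43 and 66 for mTOR Tg (1.09, SE 0.41). Acvr1, a type I BMP receptor gene, had counts of 491 and 546 for WT and 408 and 500 for mTOR Tg (-0.31, SE 0.21), with -0.19 when mTOR Tg replicate 1 was left out.

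Of the other SMADs and their anchors all 10 were tested, 8 negative and 2 positive, with a median of -0.20, which was 0.01 with the offsets, 0.01 without mTOR Tg replicate 1 and -0.42 without replicate 2. Smad1, which serves BMP receptors, was at 30.4 and 29.5 CPM in WT and at 19.5 and 28.2 in mTOR Tg, and Hgs, an endosomal sorting gene, at 73.0 and 73.7 and at 104 and 78.8. Smad6, the BMP counterpart of Smad7, was at 23.9 and 23.7 CPM in WT and at 18.8 and 21.2 in mTOR Tg, below both WT libraries like Smad7 (log2 fold change -0.25, SE 0.20, and -0.43 with the offsets). BMP target genes were split, with 4 of 9 tested genes positive. Relative to the WT mean their median was 0.27 in the first mTOR Tg library and -0.49 in the second, and Gata2 had a log2 fold change of -0.43 (SE 0.42), from -0.76 to -0.16 with 1 mTOR Tg library left out. In the SMAD-independent branch 14 of 14 genes were tested, 6 positive, with a median of -0.18. That median was -0.43 when mTOR Tg replicate 2 was left out, -0.02 when replicate 1 was and 0.00 with the offsets. The actin regulator Limk1 was at 35.4 and 41.5 CPM in WT and at 47.6 and 53.0 in mTOR Tg. Tab3, an adaptor of the kinase TAK1, was at 11.6 and 12.4 and at 6.87 and 11.3.

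By the distance between centred log2 CPM profiles over the 4 libraries, the genes most like Tgfb3 were Usp40, Ndfip2 and Pip5k1b (0.04 to 0.06 among 5101 genes of similar level). Those most like Tgfbr2 were Alkbh5, Nckap1 and Susd6, and those most like Smad3 were Crebzf, Ptpn3 and Bmp3. With 4 libraries of which 1 stands apart, such a profile is mainly the value of mTOR Tg replicate 1.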
